A study of Mus musculus with 6 samples.

Results

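The p53 pathway and the apoptosis machinery were examined in E10.5 mouse hearts through 37 genes. They were chosen by name, with earlier results of these data known. They comprise 19 genes of the p53 pathway and 18 genes of the apoptosis machinery. Of the 18193 genes that the array's annotation tied to a probe set of their own, 34 were members, and 33 of these were bright enough to be tested. Groups of 3 arrays each were compared, both of C57BL/6N background: hearts of RhoE knockout embryos (KO), homozygous for a gene trap that interrupts Rnd3 throughout the embryo, and hearts of wild-type embryos (WT). The series' design text dates the death of the knockouts to this stage and the days after it, and calls the embryos littermate pairs. No label says whether an array holds 1 heart or several, or that a replicate number marks a litter, so p-values measure only the spread between these arrays. Because RNA came from whole hearts, fewer cells of a type and less RNA per cell cannot be told apart.

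The transcription factor p53 is held low in healthy cells by MDM2, a ubiquitin ligase that marks it for destruction, and by its partner MDM4. After DNA damage or other stress p53 accumulates and switches on genes that halt the cell cycle, such as Cdkn1a, and genes that favour death, such as Bbc3 and Pmaip1. Death through mitochondria is set by the BCL2 family. BH3-only proteins such as BIM, BID and BAD neutralise the survival proteins BCL2, BCL-XL and MCL1 or activate the pore-forming proteins, cytochrome c then escapes and builds the apoptosome with APAF1 and caspase-9, and inhibitor of apoptosis (IAP) proteins hold the caspases back. Much of this control acts on proteins, which arrays do not measure.

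Promoters of the p53 targets are shown first, since binding near the start of a gene is a known way in which p53 acts on its targets. Sites further from the start were not searched, so a gene without a match may still hold a site elsewhere. RefSeq promoters (build GRCm38.p6, 250 bases before to 50 after the start) were given for 28 of the 33 tested members. They were searched for the p53 response element consensus, 2 copies of a 10-base site with at most 1 base between them, allowing 3 mismatches outside the fixed C and G of each copy. The consensus is its own reverse complement, so both strands were read at once. A match was found for 5 of the 28 members (17.9%), against 884 of 27025 genes with a promoter in the table (3.27%). All 5 are p53 targets, picked by name as known targets. The higher share may follow from that choice and is no result about the members. With at most 1 mismatch, as in Cdkn1a and Ccng1, a match was found for 35 genes of the table (0.130%). The matches are given below in capitals with 20 bases on either side. A match is a description of letters, and binding of p53 was not measured here.
Cdkn1a, chr17:29090908-29090967, plus strand, 1 mismatch: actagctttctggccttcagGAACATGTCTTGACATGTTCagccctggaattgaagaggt
Ccng1, chr11:40755442-40755501, minus strand, 1 mismatch: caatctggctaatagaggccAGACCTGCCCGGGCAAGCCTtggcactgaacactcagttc
Bbc3, chr7:16309466-16309525, plus strand, 3 mismatches: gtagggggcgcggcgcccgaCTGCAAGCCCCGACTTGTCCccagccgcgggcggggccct
Aen, chr7:78895917-78895976, plus strand, 3 mismatches: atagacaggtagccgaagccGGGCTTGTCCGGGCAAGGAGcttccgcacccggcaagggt
Sesn1, chr10:41887246-41887305, plus strand, 3 mismatches: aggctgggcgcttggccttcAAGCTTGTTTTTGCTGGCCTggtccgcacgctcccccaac
These 5 genes did not share a direction between the groups, with log2 fold changes of -0.35 for Cdkn1a, -0.06 for Ccng1, -0.10 for Bbc3, 0.03 for Aen and 0.35 for Sesn1.

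The arrays carried their labels in the targeted gene and in the tissue. Rnd3 read 5.89, 12.3 and 121 on KO arrays 1, 2 and 3, against 909, 954 and 862 on WT arrays 1, 2 and 3 (MAS5 signal, a linear brightness scaled to a common target on each array). All 8 cardiomyocyte markers were above the low-signal limit, each array's 40th percentile, on all 6 arrays. The arrays also differed in ways other than genotype. Xist, the RNA that coats the inactive X chromosome of female cells, read 539, 8884 and 28.4 on the KO arrays, against 10251 to 12474 on the WT arrays. Summed signals of 8 liver and yolk sac endoderm markers were 464 to 2130.4 in KO, against 1640.4 to 7624 in WT, with all 7 tested markers lower in KO and 1, Alb, past the test. Summed signals of 8 macrophage markers were 848 to 2000.1 in KO, highest on KO array 2, against 821 to 860.2 in WT, with 1 of 5 tested markers, Lyz2, past the test. No marker of either list was at 0, though the macrophage markers C1qa, Aif1 and Fcgr3 were too dim to test. Lists of cardiomyocyte, endothelial, erythroid and neural markers had 0 genes past the test. Of the 8 cardiomyocyte markers, 6 were lower and 2 higher in KO, with a median log2 fold change of -0.11. The ratio of 3′ to 5′ Gapdh signal, a sign of RNA integrity, was 0.939 to 0.993 in KO and 1.09 to 1.13 in WT, without overlap. The same ratio of Actb overlapped, at 2.22 to 2.54 in KO and 2.35 to 2.62 in WT. The part of these differences in the members' values was not tested beyond the fits with Xist given with the results.

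No member rose or fell in KO hearts. Of the 33 tested members 0 passed an adjusted p of 0.05 in limma, against 162 of 12712 genes tested (1.27%, with 0.787% higher and 0.488% lower in KO). At that rate fewer than 1 call falls among 33 genes. At an unadjusted p of 0.05 the count was 9 of 33 (27.3%), 3 higher and 6 lower in KO, against 20.3% of all genes tested (8.54% higher and 11.8% lower). The smallest adjusted p of a member was 0.128, for Bik. The differences were small as well as uncalled. Log2 fold changes (KO minus WT) ran from -0.47 for Bik to 0.39 for Bad, and the median size was 0.18, against 0.17 over all genes tested. The 95% intervals, not adjusted for the number of genes, ran from -0.88 at the lowest to 0.71 at the highest. On the brightest probe sets, none of the 33 thus reached a 2-fold difference in either direction. In 24 of the 33 the interval also lay inside 1.5-fold either way. Intervals of some dimmer probe sets did pass 2-fold, such as 1 of Bcl2 (-0.58, from -1.09 to -0.06) and 1 of Casp9 (0.43, from -0.61 to 1.48).

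**Figure D1:**
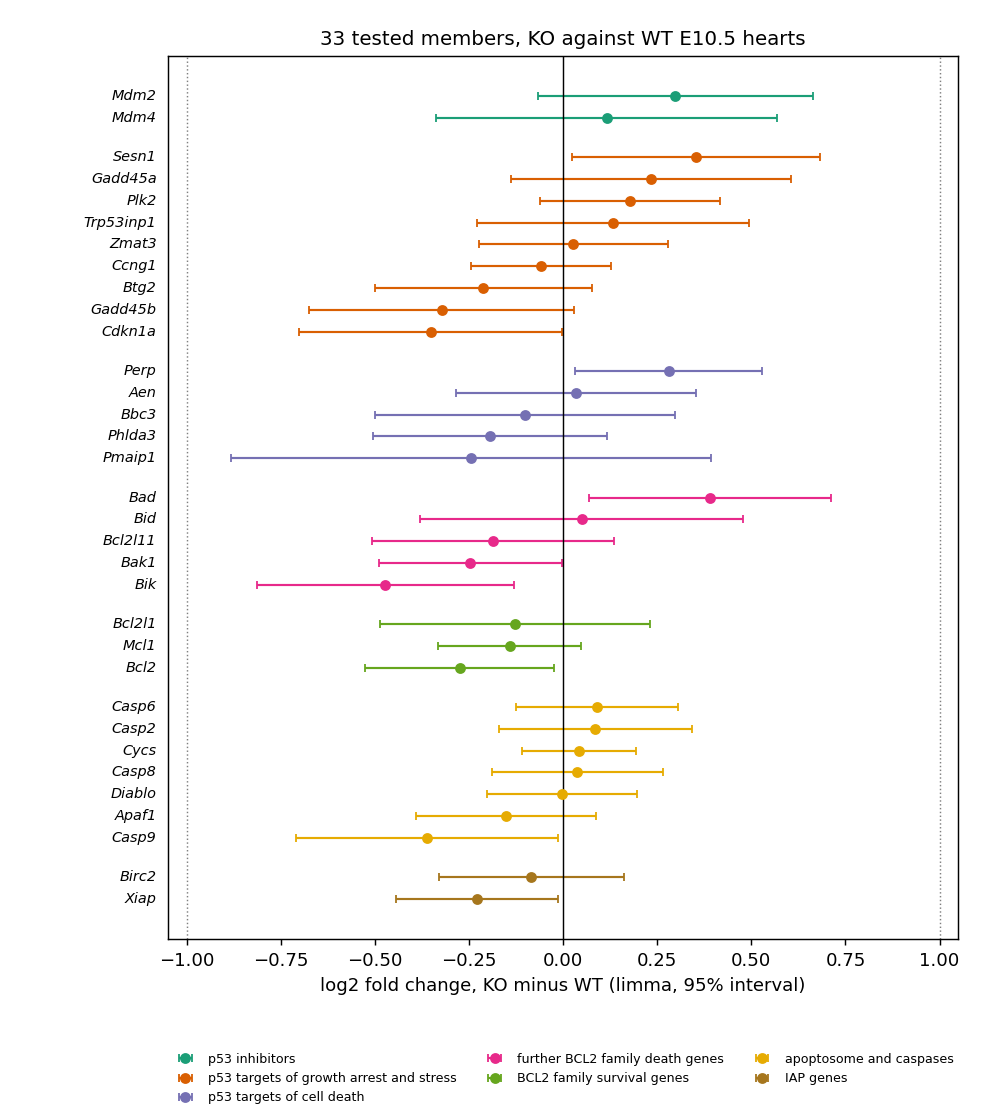
Log2 fold change (KO minus WT, x axis) of each tested member, grouped by role and sorted within each role; points are limma estimates, bars 95% intervals and dotted lines a 2-fold difference. All intervals lie between -0.88 and 0.71. The points of the 3 survival genes of the BCL2 family lie left of 0, though the intervals of Mcl1 and Bcl2l1 cross it, and points of p53 targets lie on both sides.

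Medians of both sets of members lay near 0, and the difference between them was not tested. The 16 tested members of the p53 pathway had a median log2 fold change of 0.03, with 9 positive and 7 negative. The 17 tested members of the apoptosis machinery had a median of -0.13, with 6 positive and 11 negative. The median over all genes tested was -0.04, with 43.8% positive. Neither median kept its sign under every alternative. That of the apoptosis machinery turned only between arrays with high Xist (0.02), a comparison with a single KO array. With probe sets averaged it stayed negative, at -0.01. That of the p53 pathway was -0.0025 with array weights, -0.05 without KO array 2 and -0.03 without WT array 3. The groups of arrays did not overlap for 6 of the 33 members (18.2%), against 26.3% of all genes tested (10.8% higher and 15.5% lower). These were Perp and Gadd45a, higher in KO, and Bcl2, Mcl1, Bak1 and Xiap, lower in KO. Both that were higher belong to the p53 pathway (2 of 16 tested, 12.5%) and all 4 that were lower to the apoptosis machinery (4 of 17, 23.5%). Both shares were below the 26.3% of all genes tested in either direction. They were above the share in their own direction, 10.8% higher and 15.5% lower. The split was not tested. It did not hold on other probe sets, where Bik and Cycs were higher in KO without overlap.

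Both inhibitors of p53 were a little higher in KO, neither past the test. Mdm2 is itself a p53 target and so closes a feedback loop. Mdm2 read 643, 929 and 699 on the KO arrays, against 532, 751 and 563 on the WT arrays. The groups overlapped, with array 2 the brightest of each group (0.30, SE 0.17, adjusted p = 0.344). A second tested Mdm2 probe set had 0.18. Mdm4, which blocks the activation domain of p53, averaged 307 ± 57.8 in KO and 286 ± 69.8 in WT (SD, n = 3 each), a log2 fold change of 0.12. Its sign turned when KO array 2 or WT array 3 was left out.

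Among the 9 growth arrest and stress targets of p53, 5 had positive and 4 negative values, with a median of 0.03. Cdkn1a encodes p21, the inhibitor of cyclin-dependent kinases through which p53 halts the cycle, and its promoter, like that of Ccng1, holds a match with 1 mismatch among those shown above. It read 524, 426 and 661 on the KO arrays, against 611, 661 and 759 on the WT arrays. KO arrays 1 and 2 lay below every WT array while KO array 3 did not (-0.35, SE 0.16, adjusted p = 0.244). Its second probe set, at 219, 211 and 414 in KO against 344 and 353 on WT arrays 2 and 3 and less on WT array 1, ordered the KO arrays the same way and had a log2 fold change of -0.22. Gadd45b, a stress-induced activator of the MTK1 kinase, read 397, 385 and 587 on the KO arrays, against 531, 580.2 and 568 on the WT arrays. Again KO arrays 1 and 2 were low and KO array 3 was not (-0.32, SE 0.16, adjusted p = 0.283), and its other 2 tested probe sets had 0.06 and 0.09.

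Sesn1, a sestrin that restrains the growth kinase complex mTORC1, pointed the other way. It read 1225, 1274 and 1047 on the KO arrays, against 818, 812 and 1181 on the WT arrays. WT array 3 alone reached the KO range (0.35, SE 0.15, adjusted p = 0.218). All 3 tested Sesn1 probe sets were higher in KO, and one of them, chosen here after its values were seen, separated the groups at 391, 524 and 419.8 in KO against 323, 313 and 342 in WT (0.44, SE 0.14, adjusted p = 0.146 over all probe sets). Gadd45a, a relative of Gadd45b and a classical DNA damage gene, averaged 197 ± 25.9 in KO and 167 ± 7.47 in WT (0.23, SE 0.17), without overlap. Plk2, a polo-like kinase, had 0.18, Trp53inp1, a p53-induced nuclear protein, 0.13, and Zmat3, an RNA-binding protein, 0.03. Btg2, an antiproliferative regulator of mRNA decay, had -0.21.

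Ccng1, the cyclin G1 gene and a long-known p53 target, was level on its brightest probe set, at 7259 ± 45.7 in KO and 7587 ± 772 in WT (-0.06, SE 0.08). A dimmer Ccng1 probe set, also chosen after its values were seen, read 892, 959 and 983 in KO, against 752, 779 and 736 in WT. There the groups did not overlap (0.32, SE 0.10, adjusted p = 0.144 over all probe sets), while the remaining Ccng1 probe set had -0.06. The probe sets of 1 gene read the same RNA, so they are not independent of one another.

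**Figure D2:**
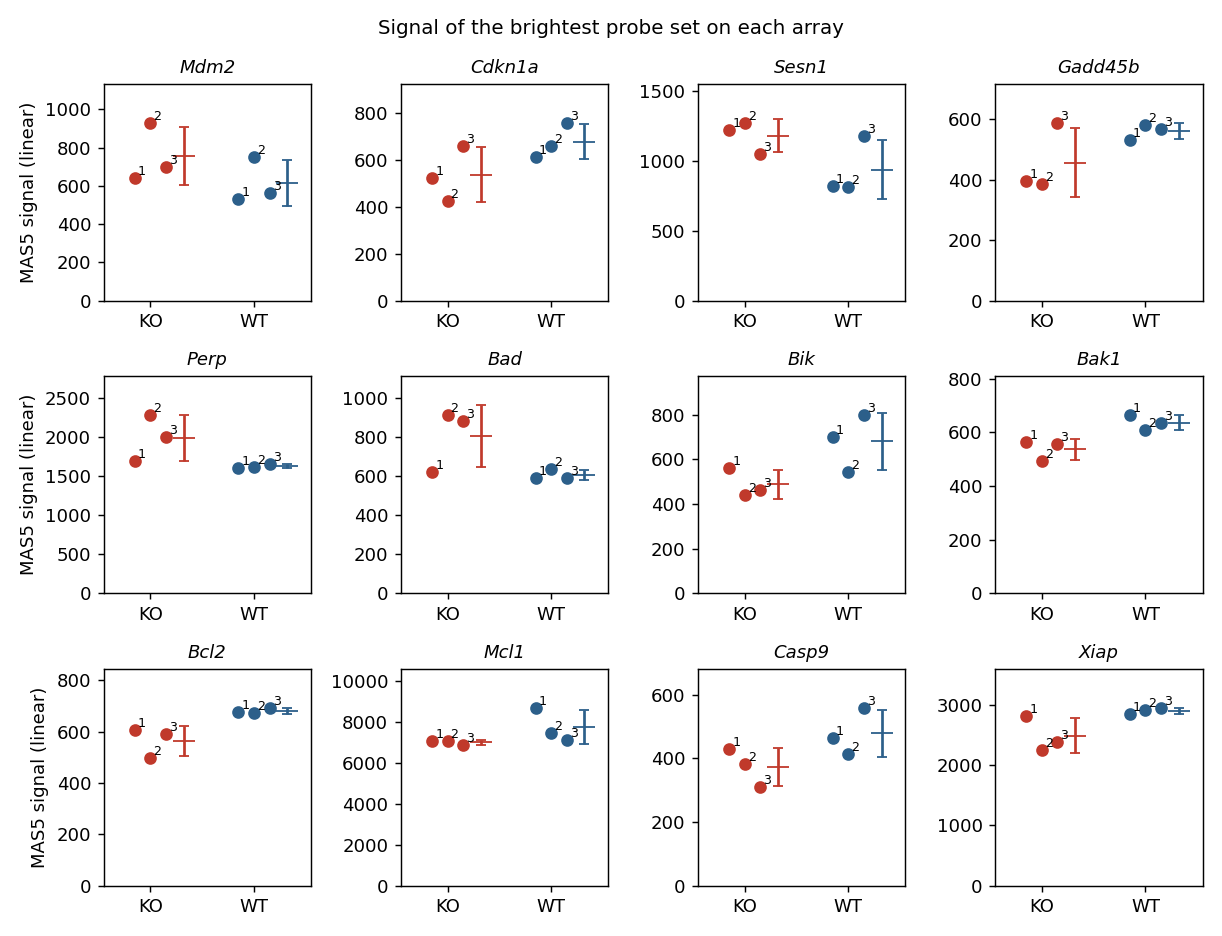
MAS5 signal (linear, y axes start at 0) of the brightest probe set of 12 members on each array; points are arrays, numbered by replicate, and bars are mean ± SD (n = 3 each). KO array 2 is the lowest KO array for Cdkn1a and Bcl2 and the highest for Mdm2, Perp and Bad, and Perp, Bak1, Bcl2, Mcl1 and Xiap show no overlap between groups.

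Of the death-promoting p53 targets, 5 were tested, 2 positive and 3 negative, with a median of -0.10. Perp encodes a membrane protein of desmosomes in epithelia that p53 induces during apoptosis. It read 1692, 2284 and 2007 on the KO arrays, against 1610.5, 1617 and 1661 on the WT arrays. All KO arrays were above all WT arrays, KO array 1 by little (0.28, SE 0.11, adjusted p = 0.194). Without KO array 1 Perp passed the threshold (0.39, adjusted p = 0.0466), in a fit that called 916 of 12712 genes (7.21%) and 2 of the 33 members (6.06%). Bbc3 and Pmaip1, which encode the BH3-only proteins PUMA and NOXA, averaged 168 ± 10.2 and 75.5 ± 13.1 in KO and 181 ± 28.5 and 89.6 ± 16.4 in WT (SD, n = 3 each). Their log2 fold changes were -0.10 (SE 0.18) and -0.24 (SE 0.29), and Pmaip1, the dimmest tested member, had the widest interval, from -0.88 to 0.39. Phlda3, a p53-induced repressor of the kinase AKT, had -0.19, and Aen, an exonuclease that digests DNA in apoptosis, 0.03.

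Fas, the death receptor of the extrinsic pathway, could not be tested. It read 24.9, 33.5 and 6.40 on the KO arrays, all below the low-signal limit, against 29.9, 65.5 and 66.1 on the WT arrays, of which WT arrays 2 and 3 lay above it. Casp8, the caspase that such receptors activate, was level at 958 ± 16.3 in KO and 935 ± 81.6 in WT (0.04, SE 0.10).

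On the brightest probe sets, the further death genes of the BCL2 family held the largest difference in each direction. Bik, a BH3-only protein of the endoplasmic reticulum, read 561, 438 and 463 on the KO arrays, against 701, 543 and 797 on the WT arrays. Only KO array 1 and WT array 2 overlapped (-0.47, SE 0.16, adjusted p = 0.128). Its other 2 probe sets were higher in KO, by 0.33 and 0.14, and with the 3 probe sets averaged the difference was -0.0004. Bad, a BH3-only protein whose activity is switched off by phosphorylation, read 621, 911 and 884 on the KO arrays, against 592, 636 and 592 on the WT arrays. KO array 1 sat among the WT arrays (0.39, SE 0.15, adjusted p = 0.172), and without it Bad passed the threshold (0.57, adjusted p = 0.0233) in the same fit with 7.21% of all genes called. The second Bad probe set had 0.10.

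Bak1, a pore-forming member that opens the outer mitochondrial membrane, read 563, 492 and 555 on the KO arrays, against 664, 609.5 and 637 on the WT arrays. Every KO array was below every WT array (-0.25, SE 0.11, adjusted p = 0.240), though a dim second probe set had 0.15. Bcl2l11, the gene of BIM, had -0.19 on its brightest probe set and from -0.05 to 0.40 on its other 4. Bid, the link from caspase-8 to mitochondria, had 0.05.

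All 3 survival genes of the family were lower on their brightest probe set, with a median of -0.14 and none past the test. Bcl2 read 605, 498 and 589.9 on the KO arrays, against 677, 670.4 and 692 on the WT arrays. The groups did not overlap (-0.27, SE 0.11, adjusted p = 0.209), and 4 of 5 Bcl2 probe sets were negative. Values of the 5 ran from -0.58 to 0.30. Mcl1, a short-lived survival protein that mice need in early development and in the heart, read 7100.3, 7086 and 6866 on the KO arrays, against 8706, 7493 and 7113 on the WT arrays. WT array 3 was only just above KO array 1 on this probe set (-0.14, SE 0.09, adjusted p = 0.387).

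Mcl1 had the most tested probe sets of any member, and also the most in 1 direction. Of its 6 tested probe sets 5 were lower in KO, each without overlap between the groups, and 1 was higher (0.12). The groups did not overlap for 23.9% of all probe sets, and those of 1 gene are not independent. The lowest, chosen after its values were seen, read 4114, 3686 and 3932 in KO, against 4755, 4591 and 5416 in WT (-0.33, SE 0.09, adjusted p = 0.103 over all probe sets), the smallest adjusted p of any member probe set. Bcl2l1, the gene of BCL-XL, averaged 731 ± 158 in KO and 793 ± 123 in WT (-0.13, SE 0.16), and its value was 0.03 without KO array 2.

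Apoptosome genes and caspases were the most level of the groups, with a median of 0.04 over 7 members and a median size of 0.09. Cycs, cytochrome c, averaged 34224 ± 1281 in KO and 33315 ± 2579.6 in WT (0.04, SE 0.07). Its next 2 probe sets had 0.23 and 0.10 without overlap between the groups, and the fourth, far dimmer, had -0.38. Diablo, the mitochondrial antagonist of IAP proteins also called SMAC, differed least of all members, at 1478 ± 23.1 in KO and 1482 ± 76.1 in WT. Casp2 and Casp6 each had 0.09, and Apaf1, the scaffold of the apoptosome, had -0.15 (SE 0.11).

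Casp9, the caspase that the apoptosome activates, was the exception in this group. It read 429, 382 and 309 on the KO arrays, against 464, 414 and 559 on the WT arrays. KO array 1 lay above WT array 2, so the groups overlapped (-0.36, SE 0.16, adjusted p = 0.230). A second, dim Casp9 probe set had 0.43. Of the IAP genes, Xiap, a direct inhibitor of caspase-3, caspase-7 and caspase-9 that lies on the X chromosome, read 2812, 2257 and 2385 on the KO arrays, against 2839.6, 2906 and 2950.1 on the WT arrays. The groups did not overlap, with KO array 1 close to WT array 1 (-0.23, SE 0.10, adjusted p = 0.221). The mean over all Xiap probe sets was 0.05. Birc2, the gene of cIAP1, had -0.08.

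Probe sets of 1 gene often disagreed in sign. Of 22 members with more than 1 tested probe set, 9 had the same sign on all of them, 6 higher in KO and 3 lower, and 13 had both signs. The 6 were Mdm2, Mdm4, Sesn1, Aen, Bad and Casp6, and the 3 were Cdkn1a, Bcl2l1 and Diablo, of which Diablo was higher (0.06) with arrays centred on their medians and higher (0.01) with quantile normalization. Some opposite signs came from probe sets near the low-signal limit, as in Bid and Casp9. Others came from brighter ones, as in Ccng1 and Mcl1. Some signs rest on values near 0, such as 0.0003 for Casp6 and 0.01 for Btg2. Of the 76 member probe sets tested one by one, 0 passed an adjusted p of 0.05 in limma (0.63% of all 23339 probe sets did) and 14 (18.4%) had an unadjusted p below 0.05, against 17.8% of all probe sets. The groups did not overlap for 15 of the 76 (19.7%), against 23.9% of all probe sets.

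**Figure D3:**
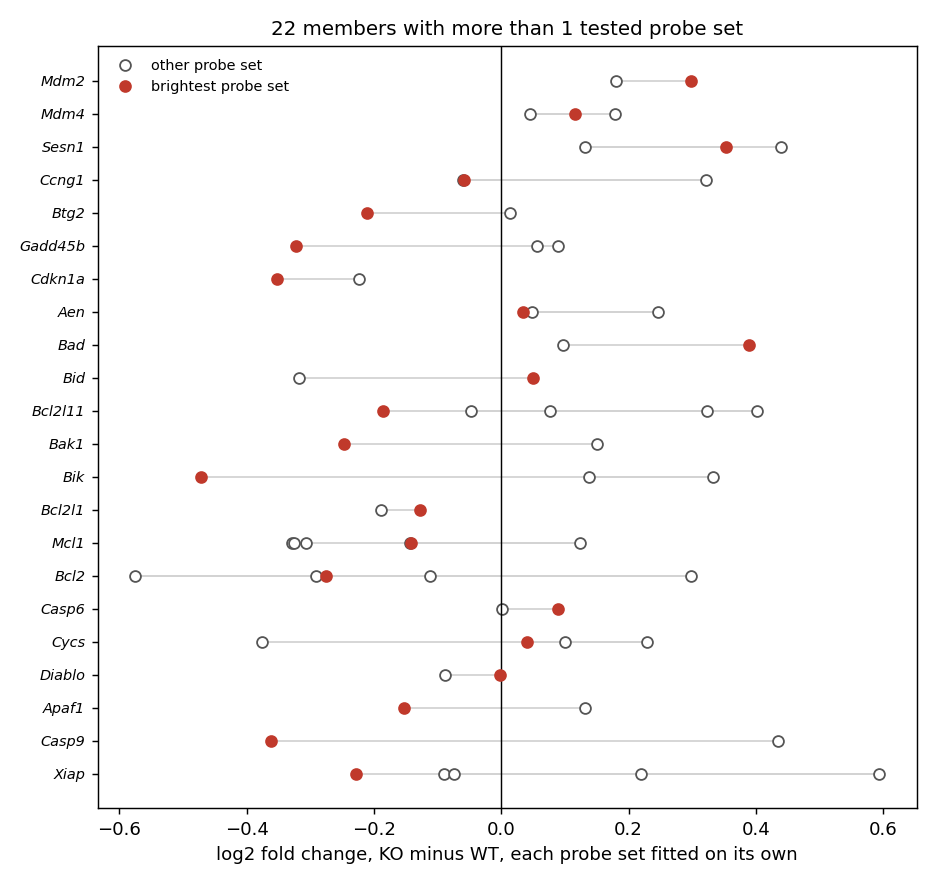
Log2 fold change (KO minus WT, x axis) of every tested probe set of the 22 members that have more than 1, fitted one by one; filled points are the brightest probe sets and open points the others. Sesn1, Mdm2 and Cdkn1a keep to 1 side of 0, while Bik, Bcl2l11, Xiap and Casp9 spread over both.

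KO array 2, the one KO array with Xist near the WT level, stood at the ends of the range most often. It was the highest of the 6 arrays for 12 of the 33 members and the lowest for 8, together 60.6% of members, against 48.6% of all genes tested. WT array 3 came next, as the highest for 12 and the lowest for 4 members (48.5%, against 32.9% of all genes). In the p53 pathway the median signal relative to each gene's mean was -0.12, 0.15 and 0.02 on KO arrays 1, 2 and 3, against 0.0005, 0.07 and -0.01 on WT arrays 1, 2 and 3. The KO arrays lay on both sides of the WT arrays. In the apoptosis machinery it was -0.0031, 0.0055 and -0.07 on the KO arrays, against 0.04, -0.0037 and 0.09 on the WT arrays. The KO arrays lay below WT arrays 1 and 3, while WT array 2 lay among them.

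**Figure D4:**
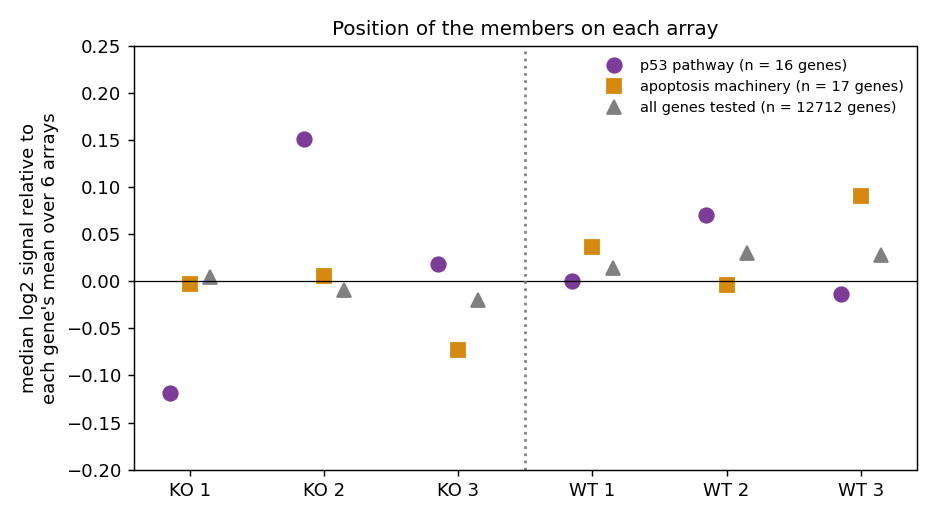
Median over genes of the log2 signal relative to each gene's mean over 6 arrays (y axis) for the tested p53 pathway members, the tested apoptosis machinery members and all genes, by array (x axis). The p53 pathway members run from -0.12 on KO array 1 to 0.15 on KO array 2, a wider range than among the WT arrays.

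With log2 Xist as a covariate in limma, 0 members passed the threshold, and only 6 of 12712 genes tested did. The smallest adjusted p of a member was 0.0692, for Cdkn1a, with a log2 fold change of -0.69 against -0.35 in the main fit. Xist varied widely only among the KO arrays, so the Xist slope of this fit rests mostly on them. Its KO values lean on KO array 2 and are not independent of the next comparison. Between the 4 arrays with high Xist, KO array 2 against the 3 WT arrays, 4 members passed. They were Perp (0.49, adjusted p = 0.0205) and Bad (0.59, adjusted p = 0.0225), higher in KO, and Cdkn1a (-0.66, adjusted p = 0.0249) and Gadd45b (-0.54, adjusted p = 0.0415), lower. In that fit 1551 of 12712 genes passed (12.2%, against 12.1% of the members) and the single KO array is assumed to vary like the WT arrays, so the counts describe KO array 2 and not the genotype.

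Other genes of the 2 pathways, listed beside the members, gave 0 calls as well. Of 33 tested further genes of the p53 pathway, 10 had an unadjusted p below 0.05 (30.3%, against 20.3% of all genes tested), 3 higher and 7 lower in KO. The median log2 fold change was -0.09. Those with the smallest p were lower in KO without overlap. Atm, the kinase that signals DNA double-strand breaks to p53, read 467, 444 and 467 on the KO arrays, against 638, 566 and 599 on the WT arrays (-0.39, SE 0.11, adjusted p = 0.0925). Trp53bp1, a repair protein at such breaks, had -0.28 (SE 0.08, adjusted p = 0.0891), Ercc5, a nuclease of excision repair, -0.48 (SE 0.14), and Usp7, the protease that removes ubiquitin from MDM2 and p53, -0.44 (SE 0.13).

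Of 30 tested further genes of apoptosis, 8 had an unadjusted p below 0.05 (26.7%, against the same 20.3%), 5 higher and 3 lower in KO. The median was 0.05. Neither list was tested against the other genes, and the genes named are those with the smallest p. Pdcd6, a calcium-binding protein also called ALG-2, averaged 2314 ± 168 in KO and 1815 ± 73.5 in WT, without overlap (0.35, SE 0.09, adjusted p = 0.0782). Bcl2l13, a BCL2-like protein of mitochondria, had 0.37 (SE 0.12), and Birc5, the survivin gene of dividing cells, 0.26 (SE 0.09). Birc6, a giant IAP protein with ubiquitin-conjugating activity, had -0.28 (SE 0.08, adjusted p = 0.102).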

How the data were processed

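The deposited values are linear intensities (signals) of probe sets on 6 Affymetrix arrays. The submitters' processing notes name MAS5 and Expression Console, with versions not given in the sources used here. Each array's 2% trimmed mean is 500, and the values were used without rescaling. The 64 control probe sets were left out, and 34945 of the other 45037 carried 1 gene symbol. Each gene is its brightest probe set in the mean log2 signal. It was tested if above each array's 40th percentile (44.5 to 52.8) on at least 3 of the 6 arrays, a working limit and no measured background, which left 12712 genes. The number of arrays, 3 per group, limits the precision.

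Log2 signals were fitted in limma 3.58.1 (R 4.3.3) as KO minus WT, two-sided, by eBayes with an intensity trend. Benjamini-Hochberg adjustment ran over all genes tested, with a threshold of 0.05 for "rose" and "fell". SE is the fit's standard error. On simulated data with 200 of 12712 genes changed, it recovered 33.0% of 1.5-fold, 64.9% of 2-fold and 91.8% of 4-fold changes, with 3.81% false calls.

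Of the 37 members, 2 are not reported here, and the 3 probe sets of Bnip3l are shared with a pseudogene. Members and lists were chosen with earlier results of these data known. Arrays are given in full for Mdm2, Cdkn1a, Bcl2 and the 12 members with the smallest p, and up to 4 genes with the smallest p are named from each further list. Alternatives covered normalization, filters, probe sets, variance model, replicate block, Xist and each array left out.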

Additional observations from a re-analysis of the deposited data

How the results depend on the processing

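The count of members past the threshold stayed 0 under every planned change of scaling, filter, probe set, variance model or threshold, and with the replicate block (189 of all genes called, 0 members), and ranged from 0 to 2 when 1 array was left out, the 2 being Bad and Perp without KO array 1. It was 4 in the comparison of Xist-high arrays, chosen after seeing the data. The replicate numbers were not taken as pairs: deviations from the group means correlated at 0.02, 0.06 and 0.02 between same-numbered KO and WT arrays, and KO array 3 correlated better with WT array 1. No member's call changed with the block. The count over all genes was less stable than that of the members. Against 162 it was 83 with median centring (80.7% higher in KO, against 61.7%), 1 without the filter, 291 with all 6 arrays above the limit, 1 without the intensity trend, 542 with array weights, 6 with the Xist covariate, 0 with probe sets averaged, 805 at a threshold of 0.1 and 1551 between Xist-high arrays. Leaving out arrays gave 0 to 916: 916, 65 and 2 without KO array 1, 2 or 3, and 0, 0 and 4 without WT array 1, 2 or 3. The cause was not tested. Over 18 alternatives, 18 of the 33 members kept their sign, and 34 of 594 values changed it, in 15 members. Among the 12 members with the smallest p, the sign changed only for Xiap, with probe sets averaged. The median of the apoptosis machinery was -0.07 with median centring, -0.04 with the Xist covariate, -0.01 with probe sets averaged and 0.02 between Xist-high arrays, and -0.15 to -0.07 with 1 array left out. That of the p53 pathway was -0.0025 with array weights, -0.05 without KO array 2, -0.03 without WT array 3, 0.09 with median centring and 0.11 between Xist-high arrays. MAS5 signals of dim members, such as Pmaip1, carry the widest intervals.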
